A study of Danio rerio with 31 samples.

Results

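The Wnt, Fgf and Bmp signalling genes described here are the 115 of 15648 genes on a zebrafish brain array whose symbol starts with wnt, fzd, sfrp, dkk, fgf, bmp, gdf, tgfb, acvr or smad, with inhba left out. The rule uses only the name, but it was chosen with earlier results of these data known. The set comprises 38 Wnt, 31 Fgf and 46 Bmp and Tgf-beta pathway members. The name picks up a few proteins that do not signal in these pathways, which are pointed out where they appear. The members carry 100 distinct symbols, 15 of which are held by a pair of rows, as is common for genes duplicated in the ancestor of teleost fish. Rows that share a symbol are told apart by their Ensembl identifier.

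Gene expression was measured on 31 one-colour arrays, each with RNA from the telencephalon or midbrain of an individual adult zebrafish (Danio rerio), all sexually mature at 1 year of age and labelled as control. Nadia and Pargana North are wild populations, and Scientific Hatchery and Transgenic Mosaic 1 are domesticated ones. Each population had 4 arrays per region, except Scientific Hatchery telencephalon, which had 3. There were 7 male and 8 female fish among the 15 telencephalon arrays, and 7 male and 9 female fish among the 16 midbrain arrays, with 1 male in each Scientific Hatchery group. The series asks how the regions differ between populations that behave differently. The labels name no transgene for Transgenic Mosaic 1.

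Wnt proteins are secreted, lipid-modified ligands that bind Frizzled receptors, and in the canonical branch they stabilise beta-catenin, which acts with Tcf and Lef factors on target genes. Fgfs signal through receptor tyrosine kinases and the Ras and MAP kinase cascade. Bmps, Gdfs, activins and Tgf-betas bind pairs of type I and type II receptor kinases, which phosphorylate Smad proteins that move to the nucleus. In the vertebrate embryo all 3 pathways pattern the brain; wnt1 and fgf8, for example, mark the boundary between midbrain and hindbrain, from which the tectum and cerebellum are organised. In the adult fish brain the same pathways are known from work on neural stem cells, blood vessels and regeneration.

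The labels of the regions were set beside marker genes. The marker lists were chosen with earlier results of these data known, so this is not an independent check of the labels. Of 14 telencephalon marker rows, 12 were higher in telencephalon and EMX2 was lower. All 14 midbrain marker rows were lower in telencephalon. The midbrain arrays also stood higher for 11 of 15 cerebellum and hindbrain marker rows, among them FAT2 at 12.17 against 6.01 (means of log2 values), for 7 of 9 oligodendrocyte rows and for 17 of 20 meningeal, fibroblast and vessel rows. No row of the last list was higher in telencephalon, and the mean over its rows ran from 8.29 to 9.07 on the telencephalon arrays and from 9.21 to 10.1 on the midbrain arrays. Of 14 diencephalon and hypothalamus marker rows, 6 were lower and 1 higher in telencephalon. Of 10 radial glia and ependyma rows, 5 were higher and 3 lower, and 6 of 10 microglia and leukocyte rows were lower. The mean over 17 eye and pineal rows ran from 6.20 to 9.13 on the telencephalon arrays and from 5.99 to 8.26 on the midbrain arrays. For 9 pituitary rows it ran from 5.44 to 6.38 and from 5.62 to 8.72. The part of these cell types in the region differences given next was not tested, apart from 1 fit with the meningeal list described at their end. In tissue samples of this kind, fewer cells of a type and less RNA per cell cannot be told apart.

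Values are log2 array values and differences are telencephalon minus midbrain in log2 units with their standard error (SE), from a limma fit to all 31 arrays. A gene was called when its p-value, adjusted by Benjamini-Hochberg over all 15648 genes, was below 0.05. Levels are given per region as the lowest, median and highest array. Probes differ in brightness, so levels were compared between arrays for a gene and not between genes. Mean brightness served only to mark the dimmest rows and to stand beside the spread within groups. Of the 115 members, 75 differed between regions, 22 higher and 53 lower in telencephalon, which is 65.2% against a background of 43.6% of all genes. Among all genes the calls on the deposited values were split evenly, 21.6% of genes higher and 22.1% lower. These shares are also the background for the counts of each family below, and no family was tested as a set. The median difference was -0.21 over the members and 0.01 over all genes. At 2-fold or more, 26 of 115 members were called, 3 higher and 23 lower in telencephalon, against a background of 8.07% of all genes. Of the 75 called members, 73 had the same sign in all 4 populations, and in 39 the sign was the same in all 15 pairs of arrays that carry the same number. A call on the mean of the 4 population differences favours a shared sign. These counts were not made over all called genes, so they are not results about the members. The arrays of the regions did not overlap for 16 members, 3 higher and 13 lower in telencephalon, which is 13.9% of members against 6.13% of all genes.

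**Figure D1:**
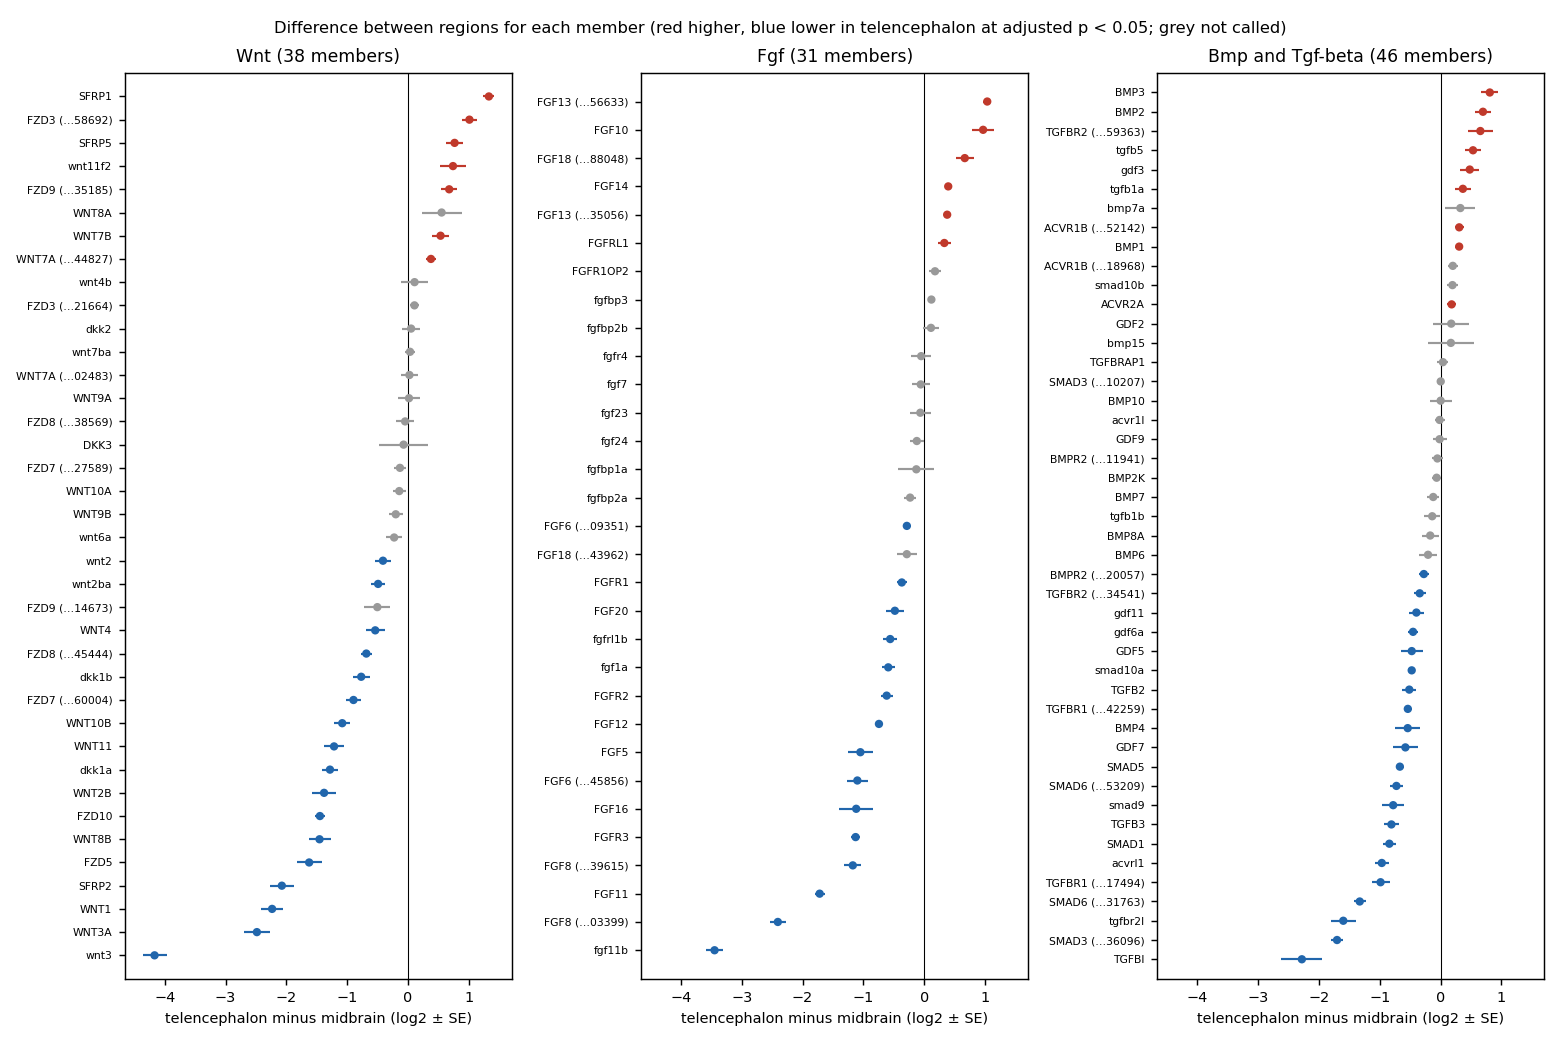
Telencephalon minus midbrain difference (log2, x axis) of each of the 115 members, by pathway, with bars of 1 SE; red points were called higher, blue lower, grey not called, and rows of one symbol carry the last 5 digits of their Ensembl identifier. The blue tail reaches -4.17 for wnt3 and -3.45 for fgf11b, while no red point lies above 1.33.

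The Wnt ligands held the largest difference of the whole set. Of 21 ligand rows, 10 were lower and 3 higher in telencephalon. For wnt3 the telencephalon arrays ran from 5.13 through a median of 6.53 to 8.14 and the midbrain arrays from 10.17 through 10.75 to 11.20. No telencephalon array reached the lowest midbrain array. The difference was -4.17 (SE 0.20), 18.0-fold lower, with limma adjusted p = 6.43e-15.

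WNT3A, the closest relative of wnt3 in name and a canonical ligand, was also apart on every array. Its telencephalon values were 5.91, 7.95 and 8.89 (lowest, median, highest) and its midbrain values 9.68, 10.47 and 11.00, a difference of -2.49 (SE 0.21, adjusted p = 4.62e-10). WNT1 lay at 5.94, 6.66 and 8.61 in telencephalon and at 8.17, 9.36 and 9.93 in midbrain. Its ranges touched through a single Nadia telencephalon array at 8.61, and it was lower in all 15 pairs (-2.24, SE 0.18, adjusted p = 1.01e-10).

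Further ligands were lower by smaller amounts. WNT8B was lower at -1.46 (SE 0.18), WNT2B at -1.38 (SE 0.20) and WNT11 at -1.22 (SE 0.16). WNT10B, at 5.54 to 6.62 in telencephalon and 6.81 to 8.05 in midbrain, did not overlap between regions (-1.08, SE 0.13). WNT4, wnt2ba and wnt2 were lower at -0.54, -0.49 and -0.41. The ligands higher in telencephalon were wnt11f2 (0.74, SE 0.21), of the Wnt11 family of non-canonical ligands, WNT7B (0.53, SE 0.14) and 1 WNT7A row (0.38, SE 0.08). The other 8 ligand rows, which include WNT9A, WNT9B, WNT10A and wnt7ba, had differences between -0.23 and 0.55 and were not called. WNT8A, at 0.55 (SE 0.33, adjusted p = 0.189), was among them, and its values by fish are given further on.

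**Figure D2:**
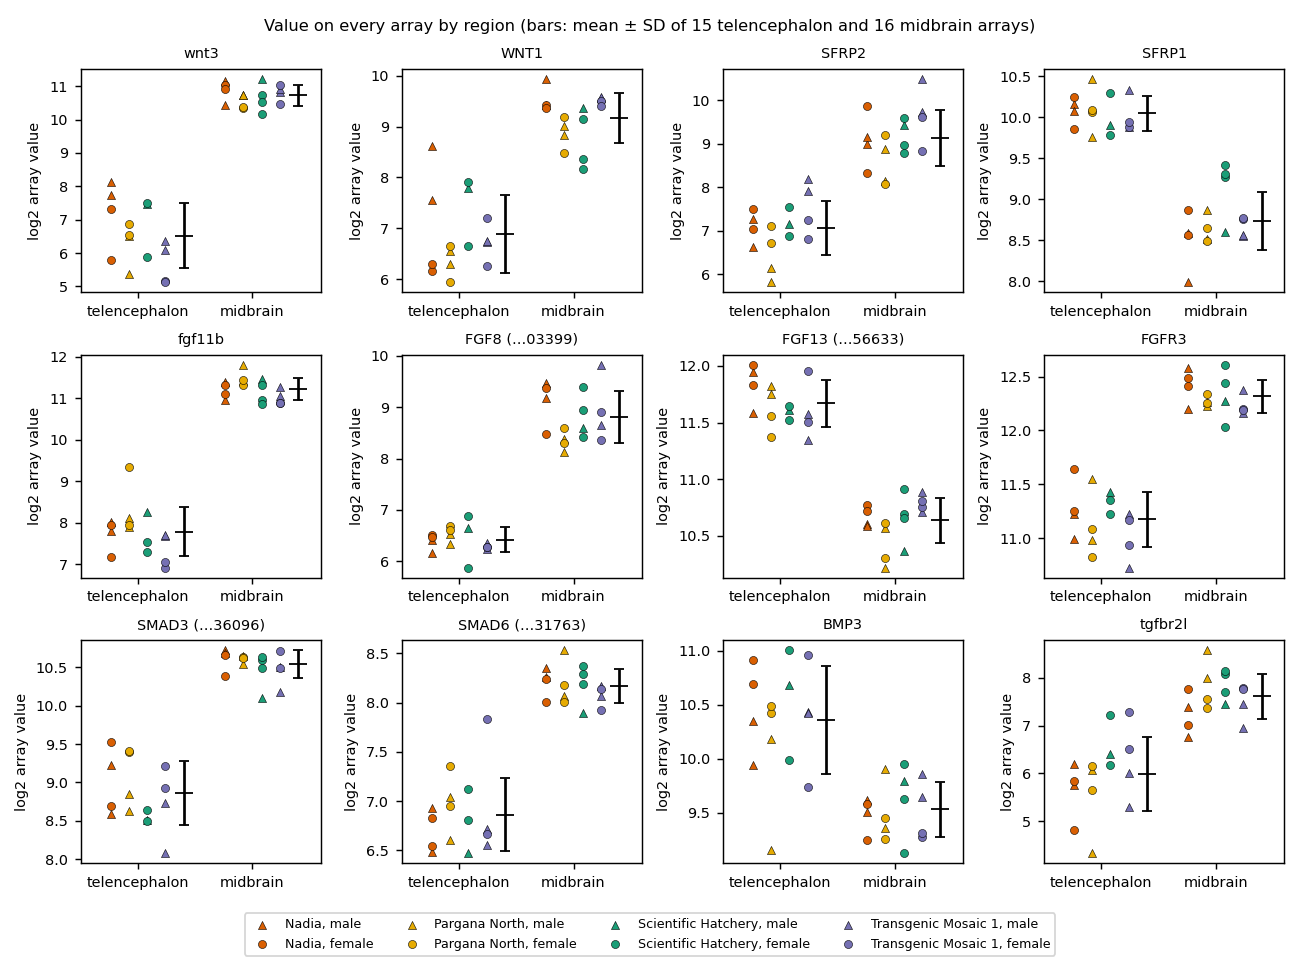
Log2 value on every array of 12 members in telencephalon and midbrain, coloured by population, with triangles for males and circles for females; bars are mean ± SD of 15 and 16 arrays. The regions separate fully for wnt3, SFRP1, fgf11b, FGF8 (ENSDARG00000003399), FGF13 (ENSDARG00000056633), FGFR3, SMAD3 (ENSDARG00000036096) and SMAD6 (ENSDARG00000031763).

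Frizzled receptors, the seven-pass membrane proteins that bind Wnts, went both ways. Of 10 rows, 4 were lower and 2 higher in telencephalon. FZD10 ran from 9.33 through 10.19 to 11.05 in telencephalon and from 11.49 through 11.62 to 11.95 in midbrain, without overlap (-1.45, SE 0.08, adjusted p = 2.19e-13). FZD5 was lower by a similar amount but with a wider spread, at 6.85, 8.06 and 9.11 against 7.93, 9.99 and 10.31 (-1.63, SE 0.20, adjusted p = 3.92e-07). Its lowest midbrain array, Scientific Hatchery 57, also had the lowest diencephalon and hypothalamus mean of its region (7.67). The part of such tissue in the FZD5 values was not tested. FZD7 (ENSDARG00000060004) and FZD8 (ENSDARG00000045444) were lower at -0.90 (SE 0.12) and -0.69 (SE 0.09). In the opposite direction, FZD3 (ENSDARG00000058692) lay at 11.61, 11.89 and 12.48 in telencephalon and at 10.46, 10.96 and 11.58 in midbrain, higher on every telencephalon array (1.01, SE 0.12, adjusted p = 1.07e-07). Frizzled 3 is known for planar polarity signalling and axon tracts in mice. FZD9 (ENSDARG00000035185) was higher by 0.68 (SE 0.13).

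Secreted inhibitors of Wnt split by gene. Sfrp proteins carry a Frizzled-like domain that binds Wnts outside the cell. SFRP1 ran from 9.76 through 10.07 to 10.46 in telencephalon and from 7.99 through 8.63 to 9.42 in midbrain, the highest difference among all members (1.33, SE 0.09, 2.51-fold, adjusted p = 5.01e-12). SFRP5 was higher too, at 11.38, 12.20 and 12.87 against 10.51, 11.36 and 11.95 (0.77, SE 0.14). SFRP2 went the other way, at 5.82, 7.12 and 8.20 against 8.07, 9.07 and 10.48 (-2.08, SE 0.19, adjusted p = 2.09e-09). Dkk1 blocks the Lrp5 and Lrp6 co-receptors, and both of its rows were lower in telencephalon, dkk1a at -1.28 (SE 0.13) and dkk1b at -0.77 (SE 0.14). dkk2 (0.05, SE 0.14) and DKK3 (-0.07, SE 0.40) were not called.

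Among the secreted Fgf ligands, 8 of 14 rows were lower and 2 higher in telencephalon. FGF8 (ENSDARG00000003399) ran from 5.88 through 6.40 to 6.87 in telencephalon and from 8.13 through 8.63 to 9.83 in midbrain (-2.41, SE 0.13, 5.31-fold, adjusted p = 1.39e-13). Every midbrain array was more than 1 log2 unit above every telencephalon array. The second FGF8 row, ENSDARG00000039615, was lower at -1.18 (SE 0.14), with values of 4.29 to 6.06 against 5.37 to 6.85 that overlapped. FGF16 (-1.12, SE 0.28), 1 FGF6 row (-1.10, SE 0.17) and FGF5 (-1.05, SE 0.20) were also lower by at least 2-fold, and fgf1a, FGF20 and the second FGF6 row by less. FGF16 was lower although 1 Transgenic Mosaic 1 telencephalon array stood at 9.49, above every midbrain array. That array, of a female, also had an eye and pineal mean of 9.13, against at most 7.70 on the other telencephalon arrays. The part of such tissue in its FGF16 value was not tested. FGF10, known as a ligand of Fgfr2 in branching organs, was higher in telencephalon in all 15 pairs, at 8.57, 9.62 and 10.71 against 8.03, 8.65 and 9.49 (0.97, SE 0.18, adjusted p = 7.2e-05). FGF18 (ENSDARG00000088048) was higher by 0.67 (SE 0.14).

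The intracellular Fgf homologous factors, FGF11 to FGF14, are related to Fgfs in sequence but are not secreted and bind voltage-gated sodium channels in neurons. All 6 of their rows were called, 3 in each direction. fgf11b ran from 6.92 through 7.79 to 9.34 in telencephalon and from 10.86 through 11.29 to 11.80 in midbrain (-3.45, SE 0.13, 10.9-fold lower, adjusted p = 1.2e-16, the smallest of all members). FGF11 lay at 8.44, 8.84 and 9.45 against 10.22, 10.59 and 10.86 (-1.72, SE 0.08). FGF12 was lower on every array at -0.75 (SE 0.07). FGF13 (ENSDARG00000056633) was higher on every array, at 11.35, 11.61 and 12.01 against 10.22, 10.68 and 10.91 (1.03, SE 0.07, adjusted p = 4.13e-12). The second FGF13 row and FGF14 were higher by 0.38 (SE 0.05) and 0.39 (SE 0.06), so that the FGF11 and FGF12 rows lay lower and the FGF13 and FGF14 rows higher in telencephalon.

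Of 6 Fgf receptor rows, 4 were lower and 1 higher. FGFR3, in the mouse brain a receptor of astrocytes and radial glia, ran from 10.73 through 11.22 to 11.64 in telencephalon and from 12.04 through 12.27 to 12.61 in midbrain (-1.13, SE 0.08, adjusted p = 1.46e-11). FGFR2 (-0.62, SE 0.10), fgfrl1b (-0.56, SE 0.11) and FGFR1 (-0.37, SE 0.09) were lower by smaller amounts. FGFRL1, a receptor that lacks the kinase domain, was higher by 0.33 (SE 0.11) while fgfrl1b, named as its counterpart, was lower. fgfr4 was not called (-0.05, SE 0.16). Nor was any of 5 further rows, the Fgf binding proteins and FGFR1OP2, which is neither an Fgf ligand nor a receptor. The differences of these 5 rows lay between -0.23 and 0.18.

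Of 16 Bmp and Gdf ligand rows, 3 were higher and 5 lower in telencephalon, none by 2-fold. Over all genes 21.6% were higher and 22.1% lower, so these counts show no clear excess by themselves. BMP3, which in mammals opposes osteogenic Bmps, ran from 9.15 through 10.43 to 11.01 in telencephalon and from 9.13 through 9.54 to 9.95 in midbrain (0.81, SE 0.14, adjusted p = 2.85e-05). BMP2, a classical Bmp ligand, was higher by 0.70 (SE 0.12) and gdf3 by 0.48 (SE 0.16). BMP4, the other classical ligand, was lower at -0.54 (SE 0.21, adjusted p = 0.0396), with telencephalon arrays from 5.77 to 9.62 around a median of 8.64 and midbrain arrays from 8.64 to 9.40. Its lowest telencephalon array was Pargana North replicate 140. GDF7, GDF5, gdf6a and gdf11 were lower at -0.58, -0.47, -0.45 and -0.40. With each array left out in turn, the call was lost in 18 of 31 fits for GDF5, in 10 for BMP4 and in 1 each for GDF7 and gdf3.

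Tgf-beta ligands split evenly, with TGFB3 (-0.81, SE 0.12) and TGFB2 (-0.51, SE 0.11) lower and tgfb5 (0.53, SE 0.14) and tgfb1a (0.37, SE 0.13) higher among 5 rows. The call of tgfb1a was lost in 5 of 31 fits that left out an array (adjusted p up to 0.0725). Among the members named by rule, tgfb1a, tgfb5, gdf3 and FGFRL1 were not called without Pargana North, WNT7B not without Nadia, and TGFBR2 (ENSDARG00000059363) not without Nadia or Scientific Hatchery. Receptors for Bmps, activins and Tgf-betas were lower in 6 and higher in 3 of 12 rows. tgfbr2l, named as a Tgf-beta type II receptor, ran from 4.34 through 6.08 to 7.28 in telencephalon and from 6.77 through 7.63 to 8.58 in midbrain (-1.60, SE 0.20, adjusted p = 5e-07). TGFBR1 (ENSDARG00000017494), a Tgf-beta type I receptor, was lower at -0.99 (SE 0.15). acvrl1, the type I receptor of endothelial cells for GDF2 and BMP10, lay at 9.77 to 11.08 in telencephalon and 11.14 to 11.54 in midbrain, without overlap (-0.97, SE 0.12, adjusted p = 2.31e-07). The vessel rows cdh5 (-0.82, SE 0.10), TIE1 (-0.79, SE 0.10) and FLI1 (-0.75, SE 0.09) were lower in the same comparison. Their part in the difference of acvrl1 was not tested on its own. In the fit with the mean of the meningeal, fibroblast and vessel rows, described further on, acvrl1 lay at -0.71 (SE 0.32) and was not called. TGFBR2 (ENSDARG00000059363) was higher by 0.65 (SE 0.20). ACVR1B (ENSDARG00000052142) and ACVR2A, activin receptors, were higher by 0.31 (SE 0.08) and 0.18 (SE 0.07), the call of ACVR2A being lost in 18 of 31 fits. The other 69 of the 75 called members kept their call in every such fit.

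Smad proteins were called in 1 direction: 7 of 9 rows were lower in telencephalon and none higher. SMAD3 (ENSDARG00000036096), which carries activin and Tgf-beta signals, ran from 8.08 through 8.74 to 9.53 in telencephalon and from 10.09 through 10.61 to 10.72 in midbrain (-1.70, SE 0.09, adjusted p = 1.38e-13). The Bmp Smads SMAD1, smad9 and SMAD5 were lower at -0.84 (SE 0.10), -0.78 (SE 0.18) and -0.67 (SE 0.07). SMAD6 is an inhibitory Smad, and both of its rows were lower, ENSDARG00000031763 at -1.33 (SE 0.10) and ENSDARG00000053209 at -0.73 (SE 0.11). smad10a was lower on every array at -0.47 (SE 0.06).

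Of the Bmp and Tgf-beta names, 4 belong to proteins of other function. TGFBI is a matrix protein that Tgf-beta induces; its telencephalon arrays ran from 6.15 through 8.04 to 11.34 and its midbrain arrays from 9.13 through 10.55 to 11.17 (-2.28, SE 0.34, adjusted p = 4.75e-06). The telencephalon array at 11.34, a Nadia male, stood above every midbrain array, and TGFBI was lower in 14 of 15 pairs. BMP1, a metalloproteinase that trims procollagens and Bmp antagonists, was higher by 0.31 (SE 0.07). BMP2K, a kinase, and TGFBRAP1, a receptor-associated protein, were not called.

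Pairs of rows that share a symbol, or differ in a last letter a or b, numbered 19, of which 18 held at least 1 call. The shared symbols were paired after they had been seen. Symbols that differ in capitals as well as in a letter were not paired, so the counts depend on how rows are named. Of such rows, FGFRL1 was higher and fgfrl1b lower, while FGF11 and fgf11b were both lower, as were WNT2B and wnt2ba. WNT7B was higher and wnt7ba not called. Both rows were lower in 5 pairs (FGF8, FGF6, SMAD6, TGFBR1 and dkk1a with dkk1b) and both higher in 1 (FGF13). In 11 pairs 1 row was called and the other was not, and in 1 pair, TGFBR2, the calls were opposite, 0.65 (SE 0.20) against -0.34 (SE 0.10). The widest gap was in SMAD3, where ENSDARG00000010207 had a difference of 0.00 (SE 0.05), with arrays from 10.18 to 10.57 and from 10.24 to 10.63, beside -1.70 (SE 0.09) in ENSDARG00000036096. In FZD9 the rows lay at -0.50 (SE 0.21, adjusted p = 0.0582) and 0.68 (SE 0.13), in FGF18 at -0.29 (SE 0.17) and 0.67 (SE 0.14), and in FZD3 at 0.11 (SE 0.07) and 1.01 (SE 0.12). For smad10a and smad10b the values were -0.47 (SE 0.06) and 0.20 (SE 0.08). These gaps carry no test of their own, and probes shared between near-identical copies could bring rows closer together.

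**Figure D3:**
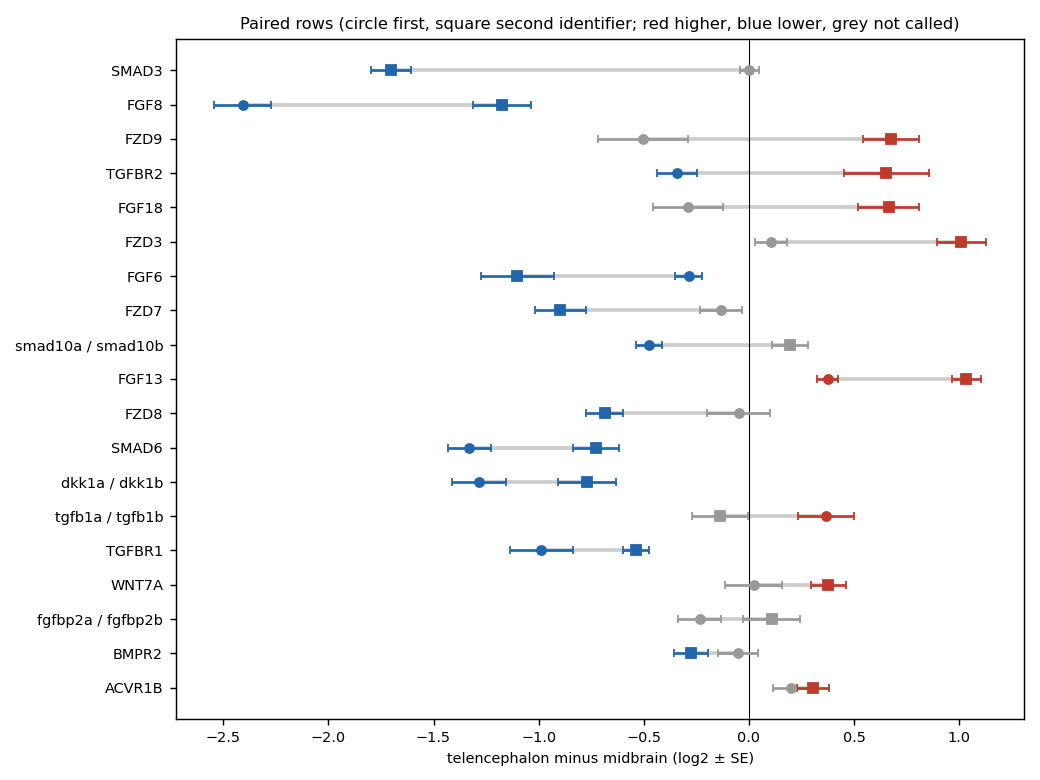
Telencephalon minus midbrain difference (log2 ± SE, x axis) of the 19 pairs of rows, ordered by their gap; circles are the first and squares the second identifier or symbol in order, red called higher, blue lower, grey not called. SMAD3 has the widest gap and TGFBR2 has a blue and a red row.

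Genes of the same pathways outside the name rule were drawn from lists of co-receptors, transducers, targets and antagonists. Of 97 such rows, 60 were called for region, 16 higher and 44 lower in telencephalon. Over all genes 43.6% were called, 21.6% higher and 22.1% lower, which is the background for each list below. On the Wnt side 5 of 38 were higher and 18 lower. SP5 (-4.09, SE 0.16), NKD1 (-2.31, SE 0.15) and LEF1 (-2.16, SE 0.12) were the largest; SP5 and NKD1 are known targets and feedback genes of the canonical pathway and LEF1 is a nuclear partner of beta-catenin. CTNNB1, beta-catenin itself, was lower at -0.98 (SE 0.12). RSPO3, a secreted amplifier of Wnt signals, was higher by 2.04 (SE 0.17), and the planar polarity rows PRICKLE2 were higher by 1.39 and 1.08. On the Fgf side 4 of 19 rows were higher and 7 lower, led by the feedback inhibitor SPRY2 (-1.47, SE 0.09) and by the target ETV4 (-0.65, SE 0.08), with the phosphatase DUSP6 (0.62, SE 0.10) and ptpn11b (0.62, SE 0.08) higher. On the Bmp and Tgf-beta side 7 of 40 rows were higher and 19 lower. The decoy receptor BAMBI was lower at -1.36 (SE 0.14). Of the inhibin beta subunits, which form activins, INHBA was higher (1.35, SE 0.15) and INHBB lower (-1.34, SE 0.13). The the secreted Bmp antagonists SOSTDC1 (1.12, SE 0.13) and chrd (0.78, SE 0.13) were higher.

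The mean of the meningeal, fibroblast and vessel rows did not overlap between regions. A fit with this mean as a covariate, chosen after seeing the data, called 25 members, 4 higher and 21 lower, which is 21.7% against 9.99% of all genes in that fit. The median SE of the members rose from 0.128 to 0.345, and 95 of 115 members kept their sign. The members with a call in it included wnt3 (-3.74, SE 0.53), fgf11b (-3.17, SE 0.36), FGF8 (ENSDARG00000003399) (-2.44, SE 0.37), SFRP2 (-2.41, SE 0.52), SMAD3 (ENSDARG00000036096) (-1.58, SE 0.26), FZD10 (-1.17, SE 0.22) and SFRP1 (1.09, SE 0.24). WNT3A, tgfbr2l, acvrl1 and TGFBI did not pass there. Of the members, 31 lay among the dimmest 25% of genes, with mean values under 7.03, and 17 of these were called for region, compared with 58 of the other 84. A fit without the dimmest 25% of genes called 52.2% of the remaining genes, above the 43.6% of all genes. The share called among the dimmest genes was not counted, so these counts are not results about the members. No measure of background was used here, so that how far a low value, such as wnt3 in telencephalon, stands above background is unknown.

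No member differed between wild and domesticated fish at the adjusted threshold. Wild fish came only from Nadia and Pargana North, and domesticated fish only from Scientific Hatchery and Transgenic Mosaic 1. The p-values rest on the spread among fish within populations, pooled over both regions, with arrays of the same number counted as separate. Domestication therefore cannot be told apart from other differences between these populations. In limma, 0 of 115 members passed in telencephalon, where 1.91% of all genes did (0.831% higher and 1.08% lower in wild fish), and 0 in midbrain, where 0.786% did (0.377% higher and 0.409% lower). At an unadjusted p under 0.05 there were 19 members in telencephalon (16.5%, against 15.4% of all genes) and 14 in midbrain (12.2% against 11.4%). Median sizes of the difference were 0.19 and 0.11 over the members and 0.14 and 0.12 over all genes. fgfbp1a, a carrier that releases Fgfs from the matrix, came nearest in telencephalon (-1.61, SE 0.43, adjusted p = 0.0504). Its arrays lay at 8.14, 7.36, 6.44 and 8.19 in Nadia, 6.42, 8.99, 6.90 and 8.65 in Pargana North, 9.31, 8.18 and 9.11 in Scientific Hatchery and 7.57, 10.37, 10.58 and 10.28 in Transgenic Mosaic 1. The highest values were those of 3 Transgenic Mosaic 1 fish, and the wild and domesticated arrays overlapped. Its adjusted p crossed the threshold in 8 of 31 fits that left out an array and with Scientific Hatchery left out, but not with any other population left out. It also passed under several other settings, among them array weights, trend and robust moderation, no sex term and arrays shifted to the same median.

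SMAD5 had small wild minus domesticated differences of one sign in both regions, -0.33 (SE 0.10, adjusted p = 0.0711) in telencephalon and -0.37 (SE 0.09, adjusted p = 0.0598) in midbrain. Its midbrain values were 8.24, 8.51, 8.61 and 8.62 in Nadia, 8.56, 8.64, 8.92 and 8.49 in Pargana North, 8.84, 8.85, 8.98 and 8.92 in Scientific Hatchery and 8.83 to 9.19 in Transgenic Mosaic 1. All wild arrays but one, at 8.92, lay below all domesticated arrays. fgf7 had a difference of -0.73 (SE 0.21, adjusted p = 0.0748) in telencephalon, and fgfrl1b one of 0.52 (SE 0.16, adjusted p = 0.138) in midbrain. The difference of GDF2 in midbrain, 1.53 (SE 0.41, adjusted p = 0.0808), came from 1 wild population: without Pargana North it was -0.63. With arrays of the same number as a random block it passed at adjusted p = 0.0496.

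Outside the name rule, DUSP6, which removes phosphate from ERK and is a feedback target of Fgf, was higher in the mean of the wild populations in both regions. Its limma difference was 0.72 (SE 0.15, adjusted p = 0.00874) in telencephalon and 0.71 (SE 0.14, adjusted p = 0.012) in midbrain. INHBA was higher (1.55, SE 0.22) and mstnb lower (-0.49, SE 0.13) in wild telencephalon, and no other row of the 3 lists passed. Over all genes, 1.91% passed for wild minus domesticated in telencephalon and 0.786% in midbrain. For these genes too, domestication cannot be told apart from other differences between the populations. Among populations, DUSP6, INHBA, mstnb, RSPO4, TCF7L1 and FSTL1 were called in telencephalon, at adjusted p of 0.000582 for INHBA to 0.0464 for mstnb, and DUSP6 in midbrain (adjusted p = 0.0138). The background for these calls is 6.44% of all genes in telencephalon and 3.29% in midbrain, so they show no excess in the lists by themselves.

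Across the 4 populations, a moderated F test called 5 members in telencephalon (4.35% against a background of 6.44% of all genes) and 2 in midbrain (1.74% against 3.29%). GDF2, also known as Bmp9, a ligand made in the liver of mammals that acts on endothelial cells through acvrl1, was called in both. In telencephalon its values were 6.62, 5.86, 6.03 and 6.41 in Nadia, 10.45, 11.31, 10.10 and 11.42 in Pargana North, 7.28, 6.13 and 7.04 in Scientific Hatchery and 6.98, 6.02, 9.41 and 9.41 in Transgenic Mosaic 1. In midbrain they were 6.14, 6.51, 5.62 and 7.16 in Nadia, 10.20, 11.12, 10.23 and 11.12 in Pargana North, 6.19, 6.27, 6.36 and 5.95 in Scientific Hatchery and 7.36, 6.12, 9.27 and 9.04 in Transgenic Mosaic 1. All 8 Pargana North arrays stood above all others, and the 4 Transgenic Mosaic 1 arrays above 9 came from the same 2 fish numbers, both female, in each region. The Pargana North means were 10.82 (SD 0.65, n = 4) and 10.67 (SD 0.52, n = 4), against 6.23 (SD 0.34) and 6.36 (SD 0.65) in Nadia, with F = 24.9 (limma adjusted p = 5.59e-05) and F = 26.8 (limma adjusted p = 5.2e-05). The calls of GDF2 held with each of the 31 arrays left out in turn, and GDF2 was not among the calls in either region once Pargana North was left out. The receptor acvrl1 was not called among populations.

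**Figure D4:**
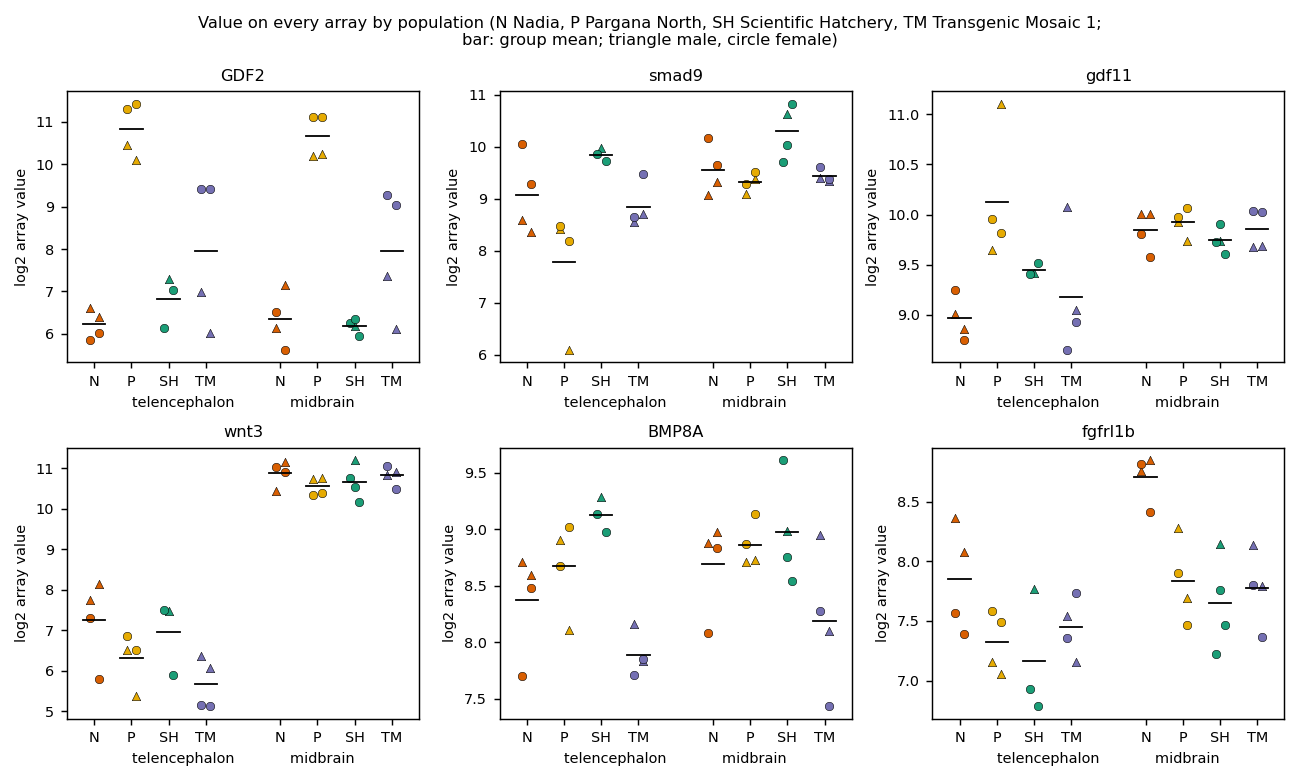
Log2 value on every array of the 6 members called among populations, by population within each region; bars are group means, triangles males and circles females. GDF2 is above 10 in all 8 Pargana North arrays, and fgfrl1b is highest in Nadia midbrain.

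smad9, a Bmp Smad, differed among telencephalon groups (F = 9.09, limma adjusted p = 0.0128). Its values were 8.59, 10.06, 9.30 and 8.37 in Nadia, 8.42, 8.48, 6.09 and 8.19 in Pargana North, 9.98, 9.86 and 9.73 in Scientific Hatchery and 8.56, 8.70, 8.66 and 9.49 in Transgenic Mosaic 1. The lowest array was Pargana North replicate 140, and the call held without it. The F test rests on a spread pooled over both regions. smad9 was not called with the telencephalon arrays fitted alone, nor without Pargana North or without Scientific Hatchery. gdf11, a ligand of the activin branch, was highest in Pargana North telencephalon, at 9.64, 9.95, 11.10 and 9.81, against 8.75 to 9.25 in Nadia, 9.40 to 9.52 in Scientific Hatchery and 8.65 to 10.07 in Transgenic Mosaic 1 (F = 8.89, limma adjusted p = 0.0137). Its highest array was again replicate 140, without which the limma adjusted p was 0.0547. gdf11 was also not called with the telencephalon arrays fitted alone, nor without Nadia or without Pargana North.

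wnt3 differed within the low telencephalon values, with means of 7.25 (SD 1.03) in Nadia, 6.32 (SD 0.65) in Pargana North, 6.96 (SD 0.92) in Scientific Hatchery and 5.68 (SD 0.63) in Transgenic Mosaic 1 (F = 6.62, limma adjusted p = 0.0384). The lowest values, 5.16 and 5.13 in the Transgenic Mosaic 1 females, lay beside the lowest diencephalon and hypothalamus list means, 6.98 and 7.02. In Nadia, replicate 130 had 5.79 at a list mean of 7.56, and the other arrays 7.32 to 8.14 at 8.85 to 8.94. Pargana North went otherwise, with 5.38 at 8.25 in replicate 140 and 6.53 at 7.28 in replicate 13. The part of such tissue in the wnt3 call was not tested. BMP8A had its highest telencephalon mean in Scientific Hatchery, with arrays at 8.97 to 9.28, and its lowest in Transgenic Mosaic 1, at 7.71 to 8.16 (F = 6.54, limma adjusted p = 0.0393). The Nadia arrays, at 7.70 to 8.71, overlapped with Transgenic Mosaic 1, and the Pargana North arrays, at 8.11 to 9.02, with both. Leaving out single arrays ended the call of wnt3 in 7 and of BMP8A in 8 of 31 fits, and with the telencephalon arrays fitted alone GDF2 was the only member called. In midbrain, fgfrl1b stood at 8.41 to 8.85 in Nadia and at 7.22 to 8.28 in the other populations (F = 8.78, limma adjusted p = 0.0212). Its call was lost without either female Nadia array or the array of 1 Nadia male, where the adjusted p rose to at most 0.116.

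Pargana North replicate 140 and 2 Transgenic Mosaic 1 arrays, of the male 99 and of the female with the high smad9 value, correlated least with the other telencephalon arrays, at a mean r of 0.959 to 0.964. A fit without these 3 arrays was chosen after seeing the data. In it the F test called 10 members in telencephalon: GDF2, smad9, BMP8A and gdf11 of the members above, and BMP4, fgfbp1a, wnt4b, GDF7, fgf7 and dkk2. That is 8.7% of members against 4.67% of all genes, above the background, whereas with all arrays weighted equally the share of members was below it. Array weights, a setting planned beforehand, also called 10 members in telencephalon, against 5.82% of all genes. The side of the background on which the members lay thus depended on how much weight single arrays were given.

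Sex made no difference that passed. In limma, 0 of 115 members were called in telencephalon, where 0.032% of all genes were, and 0 in midbrain, where 0.00639% were; 12 and 3 members had an unadjusted p under 0.05, which is 10.4% and 2.61% against 10.7% and 4.13% of all genes. TGFBR1 (ENSDARG00000042259) came nearest in telencephalon, at 11.19, 11.56 and 11.71 in males (lowest, median, highest) and 11.55, 11.74 and 12.03 in females (-0.29, SE 0.09, adjusted p = 0.274). SMAD3 (ENSDARG00000036096) had a male minus female difference of -0.43 (SE 0.14) and WNT11 one of 0.71 (SE 0.23). In midbrain dkk1a lay at 6.66, 7.23 and 7.82 in males and 7.57, 7.79 and 8.37 in females (-0.61, SE 0.18, adjusted p = 0.999). fgfrl1b (0.37, SE 0.16) and SFRP1 (-0.28, SE 0.13) followed. The groups overlapped for each of these genes.

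Tests of whether one difference depended on another factor called no member. For wild minus domesticated, the difference between regions was called in 0 members (0.0192% of all genes; at an unadjusted p under 0.05, 5 members or 4.35% against 4.32% of all genes), with fgf24 (-0.64, SE 0.24), BMP2 (0.66, SE 0.25) and dkk1b (0.65, SE 0.28) nearest. For sex the count was 0 (0% of all genes; unadjusted, 4 members or 3.48% against 3.29%), with FGF6 (ENSDARG00000009351) (-0.37, SE 0.13), BMP3 (-0.62, SE 0.28) and acvrl1 (-0.52, SE 0.24) nearest. For the region difference itself, 0 members differed among populations (0.0256% of all genes; unadjusted, 5 members or 4.35% against 3.83%). gdf11 was nearest, with telencephalon minus midbrain values of -0.88 in Nadia, 0.20 in Pargana North, -0.30 in Scientific Hatchery and -0.68 in Transgenic Mosaic 1, followed by BMP2 and WNT9B. These counts do not show that the differences were alike.

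Arrays of one group varied more in these genes than in the typical gene of the array. The median residual SD was 0.366 over the members (0.402 in Wnt, 0.334 in Fgf, 0.328 in Bmp and Tgf-beta) and 0.287 over all genes, and 77 of 115 members lay above the median gene. The members were also dimmer, with a median level of 9.04 (8.10 in Wnt, 8.65 in Fgf, 9.36 in Bmp and Tgf-beta) against 9.62 over all genes. The part of brightness in the spread was not tested. The widest were DKK3 (1.19), bmp15 (1.12), TGFBI (0.99), WNT8A (0.96), fgfbp1a (0.87) and GDF2 (0.86), all above the 97th percentile of genes.

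In bmp15 and WNT8A the high values sat in the same fish numbers in both regions. bmp15, known as a factor of oocytes, was at 9.01 in telencephalon and 7.91 in midbrain in the Nadia male 98, and at 8.49 and 7.72 in the Nadia female 130. The other Nadia arrays lay at 4.57 to 5.12 and those of the other populations at 4.43 to 5.57. WNT8A was at 8.80 in telencephalon and 9.05 in midbrain in 1 Nadia male, at 8.72 and 8.59 in Pargana North 85 and at 9.09 and 8.09 in Pargana North 21, and at 5.43 to 7.44 on all other arrays. wnt4b was highest in the same 2 Pargana North fish, at 11.69 and 11.57 in telencephalon and 11.08 and 11.34 in midbrain, and at most at 10.42 elsewhere. These groups of fish were picked by their values and carry no test.

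**Figure D5:**
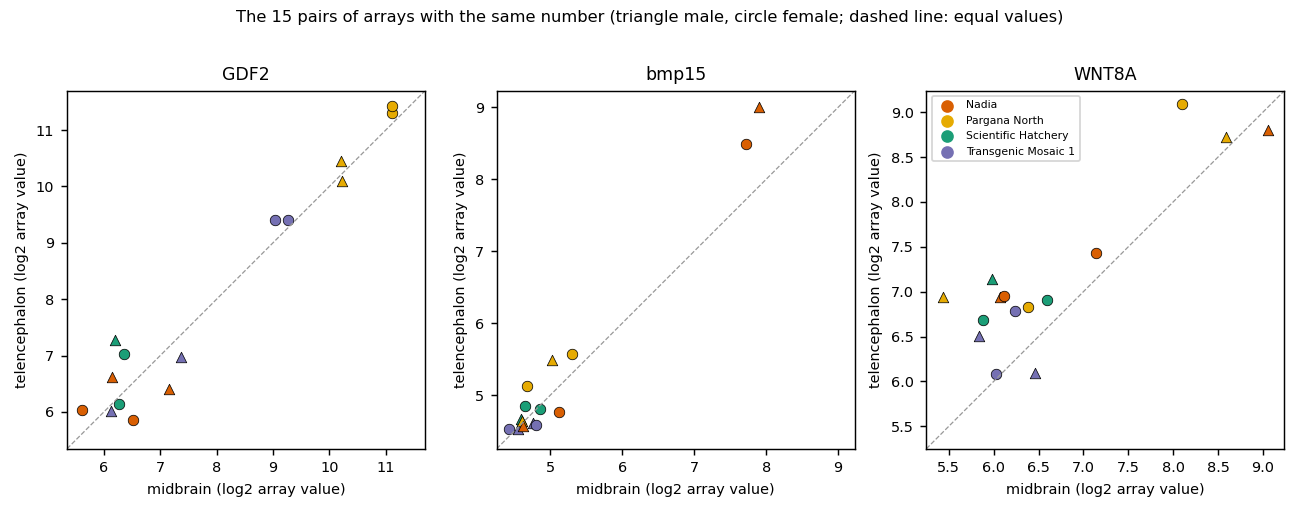
Telencephalon against midbrain value (log2) of GDF2, bmp15 and WNT8A in the 15 pairs of arrays with the same number, coloured by population; the dashed line marks equal values. Fish high in one region are high in the other, 6 for GDF2, 2 for bmp15 and 3 for WNT8A.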

How the data were processed

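The authors deposited log2 values per Ensembl gene; RMA and the Zv9 build are named per the submitters' processing notes, and the scale was inferred from RMA and from values between 3.50 and 15.48. Per the labels' protocols, Trizol RNA of individual brain samples was primed with random hexamers and labelled with Cy3. No scanner files were used. One row without a gene (0.00639% of rows) was left out, no rescaling was applied (array medians 9.57 to 9.74), and symbols matched 13251 genes.

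limma 3.58.1 in R 4.3.3 estimated 8 means, 1 per population in each region, plus male minus female terms for both regions (residual degrees of freedom 21, prior 2.92), with Benjamini-Hochberg adjustment over all genes and a threshold of 0.05. The fit was tested on simulated data first. The number of arrays limits the precision. Nothing states whether fish were housed or processed in batches, so p-values measure the spread between these samples.

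Replicate numbers are shared by 15 arrays of each region. Deviations from group means correlated at 0.121 to 0.542 within all 15 pairs, and 13 correlated best with their own number, so the numbers were taken to mark the same fish, with duplicateCorrelation (statmod 1.5.0) as an alternative.

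The members and lists were chosen with earlier results of these data known. Named for region were the 6 largest calls per direction and pathway and all calls of 2-fold, for the other tests every call or the 3 smallest p, and for the other lists up to 4 of the largest calls, of which 1 is not reported here; members outside this are given to complete a family, or were chosen after their values were seen. CTNNB1, PRICKLE2, SOSTDC1, chrd and the vessel rows are of that kind. A part of the rule that named the brightest members was not used, since probes differ in brightness.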

Additional observations from a re-analysis of the deposited data

Results flagged for a closer look

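Dixon's criterion was applied to 103 groups of 4 to 9 arrays, for 13 members and for the members named for sex. The 13 were those named for populations or for wild minus domesticated, and those of widest spread within groups. In 9 groups the highest or lowest array lay far from the rest. Chance meets the criterion in about 1 of 20 groups. Members picked for a wide spread tend to meet it more often, so that rate cannot be set against the 9. In Pargana North telencephalon, replicate 140 was low for smad9 (6.09, others 8.19 to 8.48) and for fgf7 (6.99, others 8.38 to 8.55). In Transgenic Mosaic 1 telencephalon, replicate 99 was low for TGFBI (6.15, others 8.36 to 8.81) and for fgfbp1a (7.57, others 10.28 to 10.58), and a female array was high for smad9 (9.49, others 8.56 to 8.70). These 3 arrays are also those that correlated least with the other telencephalon arrays. In midbrain, BMP8A was low in Nadia replicate 7 (8.09, others 8.83 to 8.98) and TGFBI in Transgenic Mosaic 1 replicate 12 (10.19, others 10.74 to 10.81). Among female midbrain arrays dkk1a was high in Pargana North replicate 13 (8.37, others 7.57 to 7.94), and among male midbrain arrays SFRP1 was low in Nadia replicate 98 (7.99, others 8.52 to 8.87). Of these arrays, the Transgenic Mosaic 1 female (9.13) and Nadia midbrain replicate 98 (8.26) had the highest eye and pineal means of their regions. The cause of the outlying values was not tested.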

How the results depend on the processing

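Beside the fit with the meningeal list (25 members called for region, 4 higher, 21 lower; 11 Wnt, 8 Fgf, 6 Bmp and Tgf-beta), no alternative moved the count of region calls by over 1.5 times, and leaving out single arrays gave 70 to 77 calls. Without the dimmest 25% of genes, which left 84 members, 17 calls were at least 2-fold. The share of all genes at that size was not counted in that fit. Under other scalings the split of called members was 25 higher and 51 lower (same median) and 24 and 48 (quantile), with the median of all genes at 0.07 and 0.05. The even split of all genes was not kept there, with 4272 higher and 2956 lower (same median) and 4079 and 3141 (quantile). These are 46.2% and 46.1% of all genes called. For wild minus domesticated in telencephalon, 1 member passed without the dimmest genes, with trend and robust moderation, at the same median, with rows of a symbol averaged, with no sex term (fgfbp1a in each) and without Transgenic Mosaic 1 (GDF2); 2 passed with array weights, without Nadia, without both Pargana North 21 arrays and without the 3 least-correlating arrays; 3 passed without Scientific Hatchery; single arrays gave 0 to 3. In midbrain 1 passed after quantile normalization, with the replicate block (GDF2), without Nadia, Pargana North or Transgenic Mosaic 1 and without the 3 arrays, and 4 with array weights; single arrays gave 0 to 2. GDF2 turned to -0.63 without Pargana North. Populations in telencephalon gave 10 calls with array weights and without the 3 arrays, 3 without Nadia or Transgenic Mosaic 1, 1 with the region fitted alone, and 3 to 9 without single arrays; in midbrain 6 with array weights, 4 with the region fitted alone, 1 without Nadia, Pargana North or Transgenic Mosaic 1, and 1 to 3 without single arrays. The share of all genes moved as well, so these counts are not results about the members alone. Array weights called 5.82% of all genes for populations in telencephalon, 9.61% for populations in midbrain and 2.75% for wild minus domesticated in midbrain. With the region fitted alone, populations gave 1.8% of all genes in telencephalon and 3.67% in midbrain. Without Scientific Hatchery, wild minus domesticated in telencephalon gave 3.5%. The replicate block changed no other call of a named member and gave 79 region calls, 24 higher and 55 lower, where 48.8% of all genes were called. The causes were not tested.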
